A study of Mus musculus with 10 samples.

Results

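Wwc2 and 9 core genes of the Hippo pathway were followed in LSK cells, the Lin-Sca-1+c-Kit+ fraction of mouse bone marrow that holds the stem and early progenitor cells of the blood. The 10 genes, out of 25078 in the deposited count table, were the scaffolds Wwc1 and Wwc2, the kinases Stk3, Stk4, Lats1 and Lats2, the adaptors Sav1 and Mob1a, and the coactivators Yap1 and Wwtr1. They were selected by name, and Wwc2 was selected on its values in these libraries, because it was lower in every library of 1 genotype. Its genotype difference is therefore a description and carries no test.

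CM mice (Cbfb56M/+/Mx1-Cre) carried 1 allele that gives the leukemia fusion Cbfb-MYH11 after Cre excision. CM/miR-126Δ/Δ mice (Cbfb56M/+/miR-126 flox/flox/Mx1-Cre) carried the same allele together with floxed miR-126. Both genotypes had Mx1-Cre and received poly(I:C) at 6 to 8 weeks of age, and LSK cells were collected 6 weeks later, before leukemia. Mx1-Cre acts in cells that answer interferon, so the deletion need not have been limited to blood cells, and these libraries do not show other tissues. No group without the fusion was part of the comparison. Each genotype gave 5 libraries, 1 per mouse.

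The Hippo pathway is a kinase cascade best known for restraining organ growth. The MST kinases (Stk4 and Stk3), held by the adaptor Sav1, activate the LATS kinases with their coactivator Mob1a. LATS kinases in turn phosphorylate YAP (Yap1) and TAZ (Wwtr1), which are then kept in the cytoplasm or degraded. Unphosphorylated YAP and TAZ enter the nucleus and drive genes through TEAD factors, and WWC proteins such as Wwc1 (KIBRA) and Wwc2 bind LATS kinases and promote their activity.

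The deleted locus codes for miR-126a, whose mature 3p strand is shown because its seed defines the sites by which this strand could pair with a transcript. It lies at chr2:26591402-26591423 on the plus strand of GRCm38.p6, and the capitals mark the seed, bases 2 to 8 (sequence from RefSeq).
mmu-miR-126a-3p: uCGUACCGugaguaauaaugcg
The DNA letters that pair with the seed are CGGTACG, and GGTACG without the outermost base. Neither run occurred in the longest annotated 3′ UTR of any of the 10 genes, among them the 2635 bases of Wwc2 and the 3693 bases of Stk4. Over 19915 genes with an annotated 3′ UTR, 2.95% held GGTACG and 0.211% held CGGTACG. The other mature strand of the same precursor was not searched. The absence of these letters says nothing of sites for that strand or of other kinds of pairing.

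The promoter of Wwc2 is shown because it carried 3 copies of the TEAD letters GGAATG, counted on both strands (CATTCC on the other). The 300 bases run from 250 before to 50 after the RefSeq start site, at chr8:47990495-47990794 on the minus strand of GRCm38.p6, and the capitals mark the matches.
Wwc2 promoter: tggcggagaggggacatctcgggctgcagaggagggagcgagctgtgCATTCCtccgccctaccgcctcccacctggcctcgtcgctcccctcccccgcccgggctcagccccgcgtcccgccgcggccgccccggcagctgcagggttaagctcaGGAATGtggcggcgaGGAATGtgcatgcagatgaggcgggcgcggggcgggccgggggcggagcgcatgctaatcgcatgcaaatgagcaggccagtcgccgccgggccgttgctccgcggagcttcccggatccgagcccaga
The matches began at positions -203, -94 and -79 from the start site and did not overlap each other. At least 1 match was present in 14.7% of 32851 promoters of the same length, and at least 3 in 43 of them (0.131%). Promoters of 9 of the 10 genes were matched, and Sav1, Mob1a, Yap1, Wwtr1 and the first of 2 Lats2 promoters each held 1 copy, whereas the other Lats2 promoter and those of Wwc1, Stk4 and Lats1 held none. Stk3 was not matched. The letters of RUNX (TGTGGT) and GATA factors (AGATAA) were in none of these promoters and in 16.8% and 11.2% of all promoters, and those of ETS factors (CCGGAA) were in Wwc1 and Stk4 and in 14.9% of all. A match is a run of letters and not a bound site. The Wwc2 promoter held 34 CpG pairs, more than 92.3% of promoters, where the median promoter held 7.

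The libraries held 23649233 to 33202086 counted reads. The CM libraries spanned this range, and the CM/miR-126Δ/Δ libraries held 24141663 to 26615091. Counts were expressed as CPM, read counts divided by library size, with TMM library factors, and levels were compared between genes as RPKM, which is CPM divided by exon length in kilobases. Mir126a, the deleted precursor, had 4, 5, 0, 2 and 3 counts in the CM libraries and 0 in each CM/miR-126Δ/Δ library. A count of 0 allows up to 3 counts, which was 0.111 to 0.131 CPM in those 5 libraries, above most of the CM values. The paper itself reports the deletion of miR-126 by qPCR, in bone marrow cells of CM/miR-126Δ/Δ mice before leukemia. Egfl7, the host gene of miR-126, had 114 ± 20.0 CPM in CM, against 107 ± 12.2 CPM in CM/miR-126Δ/Δ (n = 5 each, SD). All 12 markers that define LSK cells and their stem cell subsets, among them Kit and Ly6a (Sca-1), passed 1 RPKM. Of these, 3 (Mecom, Hlf and Meis1) had higher estimates in CM/miR-126Δ/Δ at an unadjusted p under 0.05, a threshold that 6.61% of all genes passed in either direction.

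CM mouse 2 stood apart from the other libraries. The summed level of 12 macrophage markers, a list made after the values were seen, was 19.2 CPM in this mouse, 207 to 359 CPM in the other CM mice and 124 to 225 CPM in CM/miR-126Δ/Δ. Each of the 12 markers had its lowest level of all libraries in CM mouse 2, and none was at 0 in every library. The genotype estimates of 12 of the 12 were below 0, and 0 had an unadjusted p under 0.05 with edgeR. Without CM mouse 2, 11 of the 12 had lower estimates at an unadjusted p under 0.05 (2.87% of all genes did in that direction). The median log2 fold change went from -0.40 to -0.69, and 0 had an adjusted p under 0.05 with edgeR. That mouse was left out because its markers were the lowest, which by itself lowers the estimates, so these counts are no test of the markers. Results on the core genes that rest on CM mouse 2 are given with and without it.

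Wwc2 was 21.7% lower in CM/miR-126Δ/Δ LSK cells than in CM LSK cells by the genotype means. It was measured at 64.5, 74.0, 62.4, 61.9 and 63.8 CPM in the CM mice, from 1524 to 2241 counts. In the CM/miR-126Δ/Δ mice it was measured at 49.3, 54.5, 49.2, 48.4 and 54.3 CPM, from 1129 to 1349 counts. The lowest CM value lay 7.47 CPM above the highest CM/miR-126Δ/Δ value, and within each genotype the values spanned a narrow range except for CM mouse 2, the highest of all. The means were 65.3 ± 4.98 CPM and 51.1 ± 3.00 CPM (SD, n = 5 each), and the log2 fold change was -0.35. Non-overlapping values with CM/miR-126Δ/Δ below CM were found for 0.728% of the 11682 genes with at least 1 mean RPKM in either genotype, a share printed here as background only, since Wwc2 was chosen by this pattern.

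The difference in Wwc2 was smaller than the 1.5-fold change that the study required of a called gene. Without CM mouse 2 it was 19.05% lower, and between mice that share a number it ran from 14.9% (mouse 5) to 26.5% lower (mouse 2). Without TMM factors the CM libraries held 63.1 to 71.7 CPM and the CM/miR-126Δ/Δ libraries 45.3 to 54.7 CPM, so the groups were apart under either scaling. In bulk LSK RNA, fewer cells that express Wwc2 and less Wwc2 RNA per cell cannot be told apart.

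**Figure D1:**
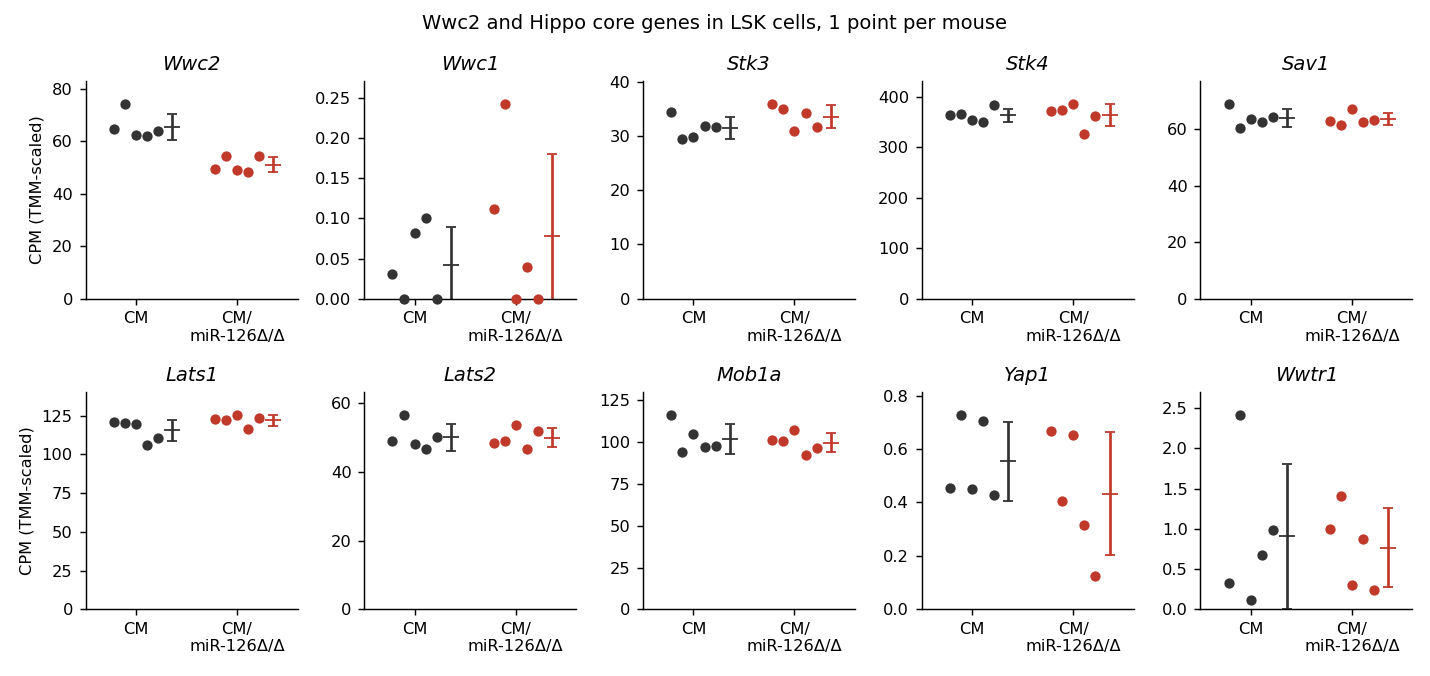
Level of each of the 10 genes in CPM with TMM scaling (vertical axes, each from 0), with 1 point per mouse in the order of the mouse numbers and the mean ± SD beside the points, for CM (black) and CM/miR-126Δ/Δ (red). Wwc2 is the gene whose genotypes do not overlap, by which it was chosen, and the Wwc1, Yap1 and Wwtr1 panels rest on at most 73 counts in a library.

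Some library properties moved with genotype. The sorted RNA was at 20.6 to 40.9 ng per microliter in CM and 16.1 to 29.5 in CM/miR-126Δ/Δ, and the rRNA precursor Rn45s took 14.8% to 18.5% and 16.6% to 22.6% of the counts. The part of either in the Wwc2 values was not tested. With all libraries, the estimates of the 12 macrophage markers were below 0, as that of Wwc2 was. Of these, 0 had an unadjusted p under 0.05 with edgeR (6.61% of all genes did). Inside the CM group the mouse with the lowest marker sum had the highest Wwc2. Lymphoid markers also had lower estimates in CM/miR-126Δ/Δ for 11 of 11 genes, with a median log2 fold change of -0.33, beside -0.01 over all genes. They summed to 52.0 to 84.4 CPM in CM and 35.2 to 67.5 in CM/miR-126Δ/Δ. Of the 11, 1 was called by the study's rule (0.288% of all genes in either direction). It was Il7r, with a log2 fold change of -0.95 and an adjusted p of 0.626 (edgeR). Mature myeloid markers ran the other way, with 9 estimates above 0 and 3 below, centred on 0.43 in log2 units. Of these, 0 higher and 1 lower estimate had an unadjusted p under 0.05 with edgeR. Their sums overlapped, at 2080 to 3938 CPM in CM and 1727 to 4646 CPM in CM/miR-126Δ/Δ. Among all 18747 genes fitted, 9865 estimates were below 0. Of the 12 LSK markers, 7 estimates were above 0, among them those of Mecom, Hlf and Meis1 given above, and 5 were below. The paper reports that miR-126 deletion lessened the expansion of stem and progenitor populations before leukemia. The part of cell makeup, or of any of these markers, in the Wwc2 values was not tested. The 15 endothelial markers, included because miR-126 and Egfl7 are known from blood vessels, summed to 563 to 681 CPM in CM and 561 to 656 CPM in the other genotype, with 12 of 15 estimates below 0. Of these genes 8 reached 1 RPKM, among them Pecam1, Eng, Tie1, Esam and Tek, which stem cells also express, and Plvap at 1.16 RPKM. Cdh5 stayed at or below 1.26 CPM in every library and Kdr at or below 2.54 CPM, while Stab2 reached 6.75 CPM in CM. Cldn5, at most 1.89 CPM, had a higher estimate in CM/miR-126Δ/Δ (log2 fold change 1.84, unadjusted p = 0.0275, adjusted p = 0.746, edgeR). None of the 15 was at 0 in every library, and their part in the Wwc2 values was not tested.

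**Figure D2:**
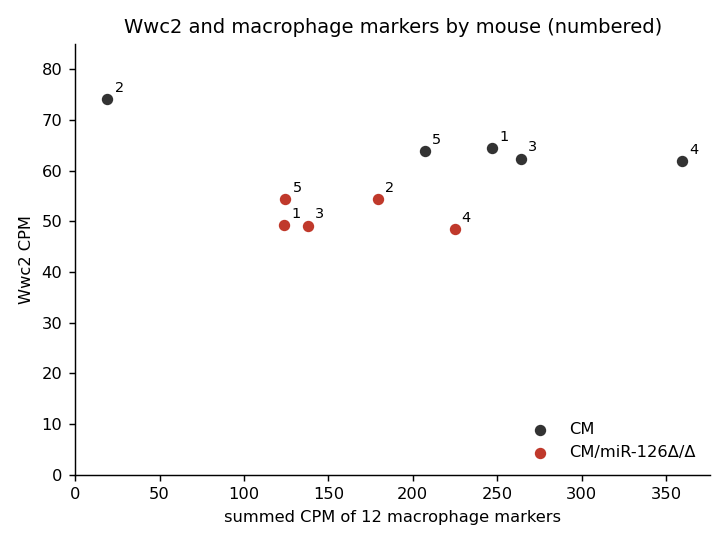
Wwc2 in CPM (vertical axis, from 0) against the summed CPM of 12 macrophage markers (horizontal axis), 1 numbered point per mouse, CM in black and CM/miR-126Δ/Δ in red. CM mouse 2 sits at 19.2 CPM of markers with the highest Wwc2, and all CM points lie above all CM/miR-126Δ/Δ points on the Wwc2 axis.

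Wwc1, the other WWC scaffold of the list, was nearly absent from LSK cells. It had 1, 0, 2, 3 and 0 counts in the CM libraries and 3, 6, 0, 1 and 0 counts in the CM/miR-126Δ/Δ libraries. The genotypes overlapped, and no fold is given at these counts, although Wwc1 is counted among the 9 genes tested next. Per exon length, Wwc2 supplied 99.4% to 100% of the summed Wwc1 and Wwc2 level in every library, so nearly all of the WWC signal of the pair was Wwc2.

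None of the other 9 core genes passed a test between the genotypes. The study's rule for a changed gene asks for p no greater than 0.01, a 1.5-fold difference and, in either genotype, a mean of 1 RPKM or more. With edgeR's quasi-likelihood test, 0 of the 9 met it, as did 0.288% of the 18747 genes fitted. At a Benjamini-Hochberg adjusted p under 0.05 the count was again 0 (0.0107% of all genes), and it was 0 at an unadjusted p under 0.05 (6.61% of all genes). DESeq2 gave 0 calls and 0 genes at an unadjusted p under 0.05. At these background shares, counts of 0 among 9 genes say little about the group. The median log2 fold change of the 9 was -0.0043, beside -0.01 over all genes fitted, and 4 estimates were above 0 and 5 below.

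The MST kinases overlapped between the genotypes. Stk4 (MST1), whose loss in people leads to immunodeficiency, was measured at 364, 366, 354, 349 and 384 CPM in CM, against 372, 374, 385, 327 and 363 CPM in CM/miR-126Δ/Δ, and the fold between genotypes was 1.00 (95% interval 0.912 to 1.10). Its paralog Stk3 (MST2) was measured at 34.5, 29.4, 29.9, 31.9 and 31.7 CPM in CM, against 35.8, 35.0, 30.9, 34.2 and 31.7 CPM in CM/miR-126Δ/Δ. The groups overlapped, the CM/miR-126Δ/Δ mouse was the higher in 5 of 5 same-numbered pairs, and the Stk3 fold was 1.07 (0.957 to 1.19, adjusted p = 0.765, edgeR). Sav1, the adaptor that joins these kinases to LATS, ranged from 60.2 to 68.7 CPM in CM and from 61.3 to 66.9 CPM in CM/miR-126Δ/Δ, with a fold of 0.991 (0.919 to 1.07).

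The LATS kinases, which WWC proteins bind, did not pass the test either. Lats1 was measured at 121, 120, 119, 106 and 111 CPM in CM, against 123, 122, 125, 116 and 123 CPM in CM/miR-126Δ/Δ, with a fold of 1.06 (0.976 to 1.14, adjusted p = 0.765, edgeR). The 2 lowest values were both in CM mice and the groups overlapped, while the CM/miR-126Δ/Δ mouse was the higher in 5 of 5 same-numbered pairs. With the mouse number as a block, the adjusted p was 0.762 for Stk3 and 0.711 for Lats1 (edgeR). Lats2, itself a known target of YAP, was measured at 49.0, 56.6, 48.1, 46.6 and 50.1 CPM in CM, against 48.4, 49.1, 53.6, 46.7 and 52.0 CPM in CM/miR-126Δ/Δ, with a fold of 0.997 (0.907 to 1.10). Mob1a, the LATS coactivator, ranged from 94.1 to 116 CPM in CM and from 92.4 to 107 CPM in CM/miR-126Δ/Δ, with a fold of 0.977 (0.887 to 1.08). The intervals of these 6 expressed genes, the MST and LATS kinases with Sav1 and Mob1a, lay within 0.887-fold and 1.19-fold. In same-numbered pairs, the CM/miR-126Δ/Δ mouse was the lower in 2 of 5 for Stk4 and Lats2, and in 3 of 5 for Sav1 and Mob1a. The labels number the mice but do not name them as pairs. The signs of Stk4, Sav1, Lats2 and Mob1a, whose estimates were near 0, changed when single libraries were left out, and that of Lats2 also changed with the scaling (log2 fold change 0.0052 with RLE size factors).

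**Figure D3:**
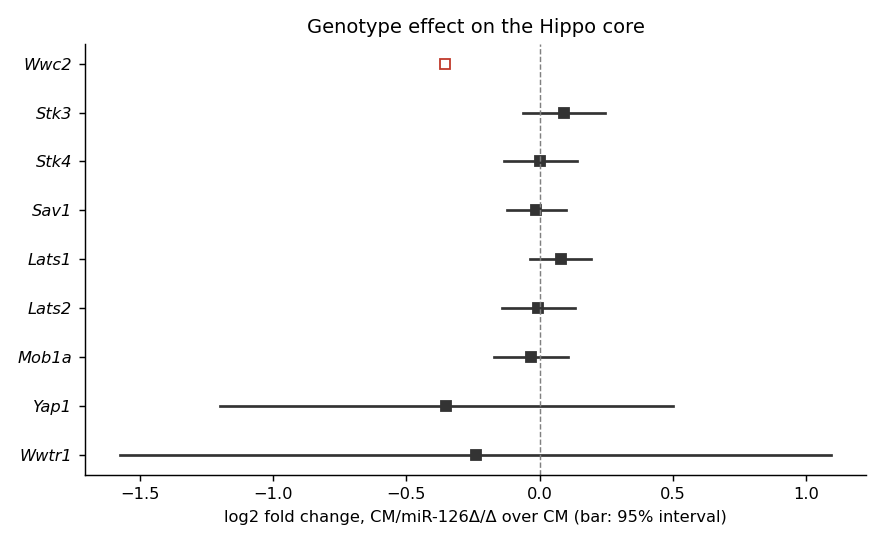
Log2 fold change of CM/miR-126Δ/Δ over CM (horizontal axis) for 9 of the 10 genes, with bars for the 95% interval from edgeR, and Wwc1 left out for its low counts. Wwc2 (open red square, -0.35) has no bar because it was chosen by its values, the intervals of the 6 other expressed genes are narrow and span 0, and those of Yap1 and Wwtr1 are wide.

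The effectors of the pathway were close to absent at the RNA level. Yap1 had 15, 22, 11, 21 and 13 counts in CM and 18, 10, 15, 8 and 3 counts in CM/miR-126Δ/Δ, which was 0.429 to 0.727 CPM and 0.124 to 0.668 CPM. The log2 fold change of Yap1 was -0.35 with an interval from -1.20 to 0.50. Wwtr1 (TAZ) had 11, 73, 3, 20 and 30 counts in CM and 27, 35, 7, 22 and 6 counts in CM/miR-126Δ/Δ. CM mouse 2 again stood out, with 2.41 CPM of Wwtr1, and the log2 fold change of Wwtr1 went from -0.24 (interval -1.57 to 1.09) to 0.52 without this mouse. A change of the size seen in Wwc2 was not detectable at this depth for either coactivator.

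Compared per exon length, the core genes fell into 2 classes. Stk4 and Mob1a were the highest at 69.5 ± 3.30 and 64.5 ± 4.55 RPKM (mean ± SD, n = 10 libraries), and their ranges overlapped, Stk4 being above Mob1a in 9 of 10 libraries. Sav1 followed at 25.2 ± 1.00 RPKM and Lats1 at 16.5 ± 0.842 RPKM, each apart from its neighbours in every library. Stk3 was at 11.1 ± 0.761 RPKM, above Lats2 at 9.01 ± 0.571 RPKM in 9 of 10 libraries. Wwtr1 at 0.175 ± 0.144 RPKM and Yap1 at 0.118 ± 0.0466 RPKM formed the low class with Wwc1 at 0.0134 RPKM, and Wwtr1 exceeded Yap1 in 6 of 10 libraries.

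Wwc2 changed its place in this order with genotype. It was at 9.98 ± 0.761 RPKM in CM, above Lats2 in 5 of 5 mice, and at 7.81 ± 0.459 RPKM in CM/miR-126Δ/Δ, below Lats2 in 5 of 5 mice. Lats2 itself was at 9.02 ± 0.692 and 8.99 ± 0.504 RPKM. The crossing follows from the Wwc2 values by which the gene was chosen.

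**Figure D4:**
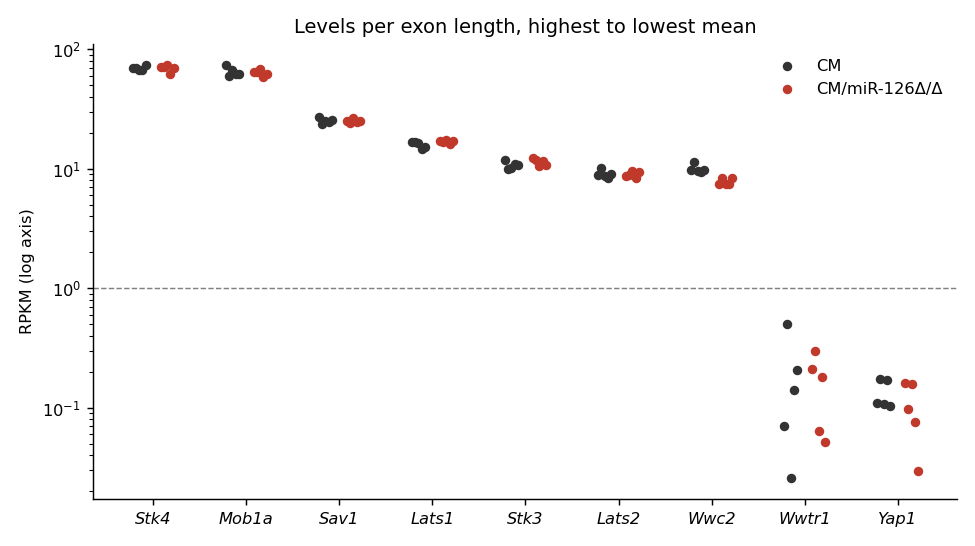
RPKM (vertical log axis) of 9 of the 10 genes in order of their mean, 1 point per mouse, CM in black and CM/miR-126Δ/Δ in red, with a dashed line at 1 RPKM. Of the genes shown, 7 lie between 7.39 and 74.4 RPKM and Wwtr1 and Yap1 lie below 0.504 RPKM, and Wwc1 is not drawn because it had libraries at 0.

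The balance between paralogs was also compared. Per exon length, Stk3 made up 13.4% ± 0.820 of the MST kinase RNA in CM and 14.1% ± 1.21 in CM/miR-126Δ/Δ (n = 5 each, SD, two-sided exact permutation test p = 0.278). Lats2 made up 36.03% ± 1.57 of the LATS RNA in CM and 34.7% ± 0.794 in CM/miR-126Δ/Δ (exact p = 0.127). Yap1 made up 51.1% ± 22.1 and 41.0% ± 18.2 of the YAP and TAZ RNA, a share that rests on few counts (exact p = 0.452). Of the 3 shares compared, the smallest Benjamini-Hochberg p was 0.381, and 5 mice against 5 can reach an exact p of 0.00794.

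The wider pathway gave no called gene. Of 76 other Hippo genes on 5 lists, 75 were in the table and 74 had counts, and 55 of them reached 1 RPKM in either genotype. With edgeR 0 were called (0.288% of all genes) and 0 had an adjusted p under 0.05 (0.0107% of all genes). At these shares, counts of 0 among 74 genes say little about the pathway. An unadjusted p under 0.05 was found for 7 (9.46%, beside 6.61% of all genes), 4 with higher and 3 with lower estimates in CM/miR-126Δ/Δ. DESeq2 also gave 0 calls and 7 at an unadjusted p under 0.05. The median log2 fold change of the 74 was -0.0026.

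Among the 25 upstream regulators and scaffolds, 12 reached 1 RPKM, and their highest members were the kinase Taok3, which can activate MST kinases, at 47.7 RPKM in CM and 47.0 in CM/miR-126Δ/Δ, and Rassf2, a binding partner of MST kinases, at 40.4 and 41.8 RPKM. All 13 matched relatives of the kinase module reached 1 RPKM. Among these Map4k3, a kinase that can act on LATS beside the MST kinases, had the smallest p of the 74 genes, with 26.9 ± 2.25 CPM in CM, against 31.7 ± 1.91 CPM in CM/miR-126Δ/Δ (n = 5 each, SD). Its log2 fold change was 0.23 ± 0.078 (SE), below the 1.5-fold rule, and its edgeR adjusted p of 0.661 missed the threshold. Map4k4 was at 46.1 and 46.9 RPKM and Map4k1, the relative known from blood cells, at 31.0 and 30.5 RPKM.

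The STRIPAK phosphatase complex, which removes the activating phosphates of MST kinases, had 12 of 14 genes at or above 1 RPKM and 0 at an unadjusted p under 0.05. Its PP2A subunits Ppp2ca and Ppp2r1a were at 128 and 74.8 RPKM in CM and 118 and 72.4 RPKM in CM/miR-126Δ/Δ. Of the genes listed for retention of YAP and TAZ or for protein turnover in the pathway, 15 of 15 reached 1 RPKM. Ywhae, a phosphoserine-binding protein, was the highest at 240 RPKM in CM and 215 in CM/miR-126Δ/Δ (log2 fold change -0.16 ± 0.073 SE, edgeR adjusted p = 0.748), and the ubiquitin ligase Nedd4 was at 128 and 126.3 RPKM. TEAD factors were low. Tead2 was the highest of them at 1.63 and 1.70 RPKM, whereas Vgll4, a cofactor that competes with YAP for TEAD, was at 23.5 and 23.7 RPKM. The other genes at an unadjusted p under 0.05, named after their values were seen, were Frmd6, Fat2 and Tead3 with higher estimates and Rassf1 and Csnk1e with lower ones, at log2 fold changes between -0.28 and 0.50.

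**Figure D5:**
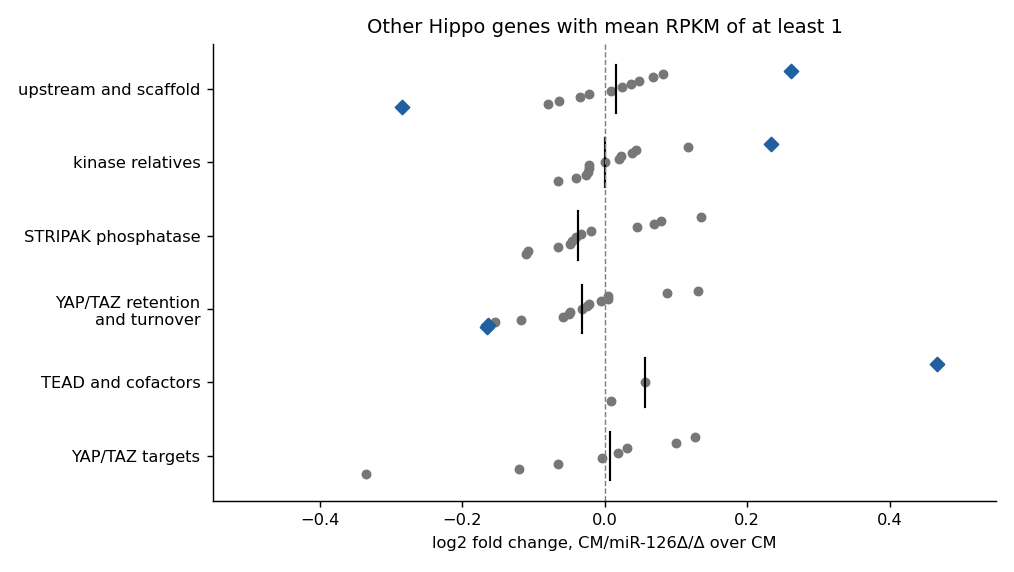
Log2 fold change of CM/miR-126Δ/Δ over CM (horizontal axis) for genes that reached 1 RPKM in either genotype, by list, with a vertical line at each list's median and blue diamonds for an unadjusted p under 0.05. The medians run from -0.04 to 0.06, no gene passed the call rule, and the target list at the bottom holds no diamond.

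Genes driven by YAP and TAZ, the readout of the pathway in other tissues, were mostly at low levels in LSK cells. Of 23 targets on the list, 8 reached 1 RPKM, and Ccn1, Ccn2 and Ankrd1, the best known of them, had at most 15, 2 and 1 counts in a library. The highest were Asap1 at 30.1 RPKM in CM and 32.3 in CM/miR-126Δ/Δ and Nuak2 at 15.6 and 14.9 RPKM. With edgeR 0 of 23 were called (0.288% of all genes) and 0 had an unadjusted p under 0.05 (6.61% of all genes), DESeq2 gave 0 and 0, and the median log2 fold change was -0.0043. That median is the estimate of Lats2, the 1 gene shared with the core, and 4 targets were also among the other Hippo genes. With the mouse number as a block, 3 of the 23 had an unadjusted p under 0.05 (8.89% of all genes did). These were Ptpn14 (log2 fold change 0.31), Dock5 (0.13) and Fjx1 (-0.87), with edgeR adjusted p of 0.506, 0.512 and 0.504. Axl, a receptor kinase on the list that macrophages also use, was at 10.6 CPM in CM mouse 2 and at 26.9 to 57.3 CPM in the other libraries.

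Genes beside Wwc2 on chromosome 8 were read to see whether the locus as a whole differed. Wwc2 covers chr8:47826082-47990544 in mm10 on the minus strand, and no other gene of the table overlaps it. Within 500 kb lay 10 genes, of which 8 had counts and 5 reached 1 RPKM, and 2, Cldn22 and Cldn24, had no count. The estimates of 4 of the 5 expressed neighbours were below 0, but with edgeR 0 of the 8 were called and 0 had an unadjusted p under 0.05, and DESeq2 gave 0 and 0. At background shares of 0.288% and 6.61%, counts of 0 among 8 genes say little about the locus. Dctd, a deoxycytidylate deaminase 108.5 kb from the start side of Wwc2, had 49.3 ± 6.82 CPM in CM, against 42.8 ± 5.00 CPM in CM/miR-126Δ/Δ. The groups overlapped, with a log2 fold change of -0.20 (interval -0.41 to 0.01). It was the 1 neighbour with an unadjusted p under 0.05 when the mouse number was a block (edgeR adjusted p = 0.463).

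On the other side, Cdkn2aip was at 38.6 ± 6.11 and 34.5 ± 5.55 CPM. Ing2, which reads a histone mark, was at 35.1 ± 12.8 and 27.3 ± 10.3 CPM, the widest spread among the neighbours. Rwdd4a was at 43.9 ± 3.54 and 41.1 ± 1.68 CPM, and Trappc11 at 71.7 ± 8.34 and 71.8 ± 3.84 CPM (SD, n = 5 each). Of the other core genes, Sav1 was overlapped by Gm3086, which had at most 1 count in a library.

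The genes whose levels ran most like Wwc2 were read from the Pearson r of log2 CPM after each genotype's mean was subtracted, over 10 libraries and among the genes with at least 1 RPKM. The highest were Zfp142 (0.89), Hivep2 (0.88), Ulbp1 (0.88), Gfod1 (0.87) and Kdm3a (0.86), and the lowest were Dctn5 (-0.95), Clybl (-0.93) and Sdhaf2 (-0.93). The median over all genes was -0.02. Of the core genes Lats2 was the most like Wwc2, with r = 0.71 and rank 109 of 11681, followed by Lats1 (0.43), Stk4 (0.26), Mob1a (-0.26), Stk3 (-0.27) and Sav1 (-0.49).

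These values rested in part on CM mouse 2. Without it, over 9 libraries, r fell to 0.32 for Lats2 (rank 2155) and moved to 0.07 for Stk3 and -0.11 for Sav1, while Zfp142 was at 0.87 and Dctn5 at -0.89. Of the 8 genes named for the extremes, 1 was among the 5 highest and 3 lowest without this mouse. The libraries share their depth and cell makeup, so r is a description of these 10 libraries.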

How the data were processed

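The authors trimmed single-end reads of rRNA-depleted libraries, aligned them to mm10 with TopHat2 and counted reads per RefSeq gene with HTSeq (0.6.1p1 in the submitters' processing notes). The deposited values are raw counts of reads per gene, and whether counting used the strand is not given in the sources used here. The authors' second table holds the same counts scaled by 1 constant per library and was not used.

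The 18747 of 25078 genes that had a count in any library entered 1 model in edgeR 4.0.16 under R 4.3.3 (TMM factors, quasi-likelihood F-test in its older form, two-sided, genotype as the only term), with Benjamini-Hochberg adjustment over all of them. RPKM was computed from counts, TMM-scaled library size and the table's exon lengths. Depth bounds and zero limits cover counting error only, and a zero allows 3 counts.

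The members and lists were chosen with earlier results of these data known. Named genes were the members, listed genes with p at or below 0.01 or among the 2 highest of their list, genes overlapping a member, neighbours of Wwc2 within 500 kb at 1 RPKM or more, the 5 highest and 3 lowest correlations with Wwc2, Mir126a and Egfl7. Macrophage markers, and a correlation without CM mouse 2, were added after the values were seen.

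Mouse numbers in the labels run from 1 to 5 in both genotypes. Deviations from the genotype means correlated between same-numbered mice at 0.172 to 0.465 (mean 0.330). The average between differently numbered mice was -0.0845, a value that subtracting the means largely fixes once the same-numbered mean is given. Since the same-numbered correlations were above 0, a fit with the number as a block was run as an alternative. Others were RLE size factors, DESeq2 1.42.0, filterByExpr, the newer edgeR form, a prior count of 0.5 in place of 2 and each library left out in turn. No 2 libraries of a genotype agreed within counting noise (lowest chi-square per gene 11.3 over 20 pairs). On simulated counts for this comparison, 200 genes with mean counts of at least 20 were changed among 18368 fitted. At an adjusted p under 0.05, edgeR recovered 62.7%, 85.1% and 100% of their 1.5-, 2- and 4-fold changes, with 5.71% false calls. Changes smaller than 1.5-fold, or in genes with fewer counts, were not simulated. The simulated set gave 175 genes at this threshold and the data gave 2. Recovery under this adjustment depends on how many genes change, so these shares need not hold for the data. 3′ UTRs came from GENCODE M1 transcripts, whose build differs from that of the counts, so no coordinates were taken from them. Promoter and miRNA sequences came from RefSeq (GRCm38.p6).

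The other marker lists gave the following counts of genes at an unadjusted p under 0.05, beside 6.61% of all genes. Stromal genes had 0 of 12, mature myeloid genes 1 of 12 and erythroid genes 0 of 7 fitted. Megakaryocyte genes had 1 of 8, lymphoid genes 1 of 11 and endothelial genes 1 of 15. The lymphoid gene was Il7r, which was called lower by the study's rule, met by 0.288% of all genes in either direction. With the block, lymphoid genes had 3, and mature myeloid, megakaryocyte and endothelial genes 2 each, beside 8.89% of all genes.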

Additional observations from a re-analysis of the deposited data

Results flagged for a closer look

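Wwc2 in CM mouse 2 was at 74.05 CPM (2241 counts), while the other 4 CM mice lay between 61.9 and 64.5 CPM. Its gap to the nearest mouse was 0.787 of the group's range. Of 18 groups checked in this way, 1 stood out. Chance gives about 1 in 20, or 0.9 of the 18 groups, so a count of 1 is near what chance gives. The same library had the lowest macrophage marker sum and the highest Wwtr1, and whether these go together with its Wwc2 level was not tested.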

How the results depend on the processing

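No setting gave a call among the 9 core genes other than Wwc2, the other Hippo genes, the YAP and TAZ targets or the neighbours of Wwc2. The log2 difference of Wwc2 ran from -0.37 to -0.34 over the other settings and from -0.38 to -0.30 with single libraries left out. Target genes at an unadjusted p under 0.05 were 0 in the reported fit, 1 with RLE size factors, 1 with filterByExpr, 3 with the replicate block and 0 to 2 with a library left out. Among neighbours of Wwc2 the count was 1 with the replicate block and 0 to 1 with a library left out, and among the other Hippo genes it was 2 to 7 with a library left out. With the block that last count was 9, where the reported fit gave 7, and no gene of these groups passed the study's rule or an adjusted p under 0.05. Signs turned only for estimates near 0 or on few counts: Lats2 was at 0.0052 with RLE size factors, 0.0048 with DESeq2 and 0.013 with filterByExpr, and Sav1 at 0.0057 with filterByExpr. With a library left out, Stk4 ran from -0.0186 to 0.0525, Sav1 from -0.0330 to 0.0271, Lats2 from -0.0307 to 0.0432, Mob1a from -0.0614 to 0.0303 and Wwtr1 from -0.57 to 0.52. Of the 8 genes named for their likeness to Wwc2, 8 were the same with a prior count of 0.5 and 1 without CM mouse 2. The causes were not tested. Depth limits Wwc1, Yap1 and Wwtr1, for which only large changes could be seen.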
